A study of Mus musculus with 4 samples.

Results

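The immediate-early genes Fos, Fosb, Junb, Egr1, Egr2, Klf4 and Ier3 and the heat shock genes Hspa1a, Hspa1b and Hsp90aa1 were followed across the stromal cells of the mouse small intestine. These 10 genes, 7 immediate-early and 3 heat shock, are 10 of the 3891 genes in the processed table that was used. The table's genes carry 23.6% and 22.6% of the UMIs of 10X libraries 1 and 2. Shares over all genes below are those of this table and not of the whole transcriptome. The genes were listed with earlier results on the same cells known, in which such genes led a cluster of villus cells. The cell groups were chosen by values above 0 of marker genes in the same 10X cells, and no member took part in that choice. The levels of the marker genes are therefore not findings, and the p-values of the members are not free of the earlier choice of genes.

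The study sorted live PDPN+ (gp38+) cells that were negative for CD45, EpCAM and CD31 from Liberase TL-digested small intestine of wild type C57Bl/6 mice aged 8 weeks. The cells were profiled as 2 10X Genomics libraries, and 2 plates of cells were profiled by Smartseq2. All 4 samples share genotype, strain, age, tissue and sort, and none received a treatment. The number of mice behind a library is not given in the sources used here, so the spread between libraries may be technical. The 10X libraries held 2547 and 14344 cells with a median of 8757 UMIs (unique molecular identifiers, range 559 to 26890) and 6874 UMIs (range 465 to 22450) per cell. Their cell names shared 7 barcodes. The sort gene Pdpn was not among the genes of the table, but summed levels of the 3 fibroblast collagen genes Col1a1, Col1a2 and Col3a1 lay between 81.8 and 241 UMIs per 10000 in every group and library. Summed levels of 6 immune markers stayed at or below 0.438 and of 4 endothelial markers at or below 0.245 in the 7 groups.

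Immediate-early genes are switched on within minutes of a stimulus without new protein synthesis, and most of those followed here encode transcription factors. FOS and JUN family proteins pair to form the AP-1 complex, and EGR and KLF proteins bind GC-rich DNA through zinc fingers. Heat shock genes encode chaperones that hold and refold proteins, and heat shock factor turns on the inducible ones when unfolded proteins build up. Genes of both families are also known to respond when a tissue is dissociated into single cells. Undissociated tissue is not analysed here, so levels present in the tissue and levels acquired on the way to the library cannot be told apart.

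Each 10X cell was placed by the genes in which it had at least 1 UMI. Cells with Sox6 were called subepithelial and split into those with Wif1, those with Adamts18 and those with neither (Sox6 only). Of the remaining cells, those with at least 3 of Inmt, Penk, Vit and Scara5 were called mesothelial-like, and then those with at least 3 of Chodl, Dner, Thbs2 and Ptn were called the Fibin type. Cells left over were called crypt if they had Grem1 and otherwise villus if they had Lpl. In this way 15383 of 16891 10X cells entered 1 of 7 groups. The crypt group held 1021 and 4837 cells in libraries 1 and 2, the villus group 611 and 3699, and the mesothelial-like group 331 and 1107. The Fibin type held 100 and 697 cells, the Sox6 Wif1 group 114 and 817, the Sox6 only group 153 and 1704, and the Sox6 Adamts18 group 18 and 174. A UMI in both Wif1 and Adamts18 was seen in 4 Sox6 cells of library 2, and 199 and 1305 cells of libraries 1 and 2 met none of these rules, although some held single marker genes. These cells without a group were shallow, with medians of 4600 and 4368 UMIs, against medians of 5982 to 11976 UMIs in the groups.

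Other markers were checked against the labels. Adamdec1, a villus fibroblast gene that took no part in the rule, was at 103 and 128 UMIs per 10000 in the villus group and 40.5 and 51.0 in the crypt group. It was close to the villus level in some subepithelial cells, at 91.6 and 102.5 in the Sox6 Adamts18 group, and lower at 64.2 and 65.5 in the group with Sox6 only. Of the other villus genes, Cxcl10 was as high in crypt (1.54 and 2.74) as in villus cells (1.51 and 2.19), and Ccl11 was higher in the Sox6 Wif1 group (5.69 and 9.23) than in villus cells (4.89 and 5.76 in libraries 1 and 2). Ackr4, a crypt fibroblast gene, was at 0.230 and 0.228 in the villus group and 2.43 and 2.46 in the crypt group. The crypt list, of Grem1, Ackr4, Cd81 and C3, was as high in the mesothelial-like group (66.1 and 55.7) as in the crypt group (52.6 and 51.2). The mesothelial-like group also held Grem1 at 12.4 and 6.41 UMIs per 10000 and had little of the mesothelial gene Wt1, at 0.349 and 0.454, so that its name states the rule rather than a cell type. All 3 Sox6 groups carried contractile genes, with a summed level of 5 smooth muscle markers between 25.7 and 35.9 against at most 7.95 in the other 4 groups and 12.5 and 9.95 in the cells without a group. Most of that was Acta2 (21.3 to 29.0). Myh11, smooth muscle myosin, was at 3.60 to 6.75 in the Sox6 groups against at most 0.712 in the other 4 groups. Cnn1 lay between 0 and 0.125 in the Sox6 groups and was at 0.2315 in the Fibin type of library 1. The subepithelial list of Sox6, Pdgfra, F3 and Tnc was at 36.3 and 39.4 in the Fibin type, close to the Sox6 only group (40.9 and 39.1), against at most 11.3 in villus, crypt and mesothelial-like cells, so that it does not part the Fibin type from the Sox6 only group. The part of the contractile genes in the comparisons with the Sox6 groups was not tested.

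The annotation (GENCODE M21, build GRCm38) places Fos at chr12:85473890-85477273 and Hsp90aa1 at chr12:110690605-110702728 of the same chromosome. Hspa1b (chr17:34956436-34959238), Hspa1a (chr17:34969190-34972156) and Ier3 (chr17:35821684-35822923) lie on chromosome 17. Klf4 lies at chr4:55527143-55532466, Fosb at chr7:19302696-19310051, Junb at chr8:84974484-84978718, Egr2 at chr10:67535475-67542188 (Egr1 is placed with its levels further on). All 10 are annotated as protein coding. Hspa1a and Hspa1b are neighbours and close copies, so their reads could be confused. Of all windows of 50 bases in the Hspa1a transcript, 58.8% were also found unaltered in the Hspa1b transcript. In the last 500 bases 0% of the windows were shared in either direction, so reads from that stretch can be told apart. The 10X libraries were processed as 3′ chemistry by the methods of the study.

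Promoter sequences were available for 8 of the 10 members (RefSeq, build GRCm38.p6), all but Egr1 and Hsp90aa1. The 250 bases before the start site are shown for Hspa1a and Hspa1b, whose levels are compared between the libraries below, and for the 1 member that held a CArG box, the serum response motif. Capitals mark the motif matches, and the sequences read 5′ to 3′ on the strand of the gene, which is the minus strand for chr17:34972157-34972406 (Hspa1a) and chr17:34959239-34959488 (Hspa1b) and the plus strand for chr10:67537619-67537868 (Egr2, 1 of 5 start sites).
Hspa1a: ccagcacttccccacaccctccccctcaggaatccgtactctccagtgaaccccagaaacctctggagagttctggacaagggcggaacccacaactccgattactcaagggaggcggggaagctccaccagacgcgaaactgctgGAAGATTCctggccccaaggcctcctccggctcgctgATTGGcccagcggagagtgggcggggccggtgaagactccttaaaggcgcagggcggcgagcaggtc
Hspa1b: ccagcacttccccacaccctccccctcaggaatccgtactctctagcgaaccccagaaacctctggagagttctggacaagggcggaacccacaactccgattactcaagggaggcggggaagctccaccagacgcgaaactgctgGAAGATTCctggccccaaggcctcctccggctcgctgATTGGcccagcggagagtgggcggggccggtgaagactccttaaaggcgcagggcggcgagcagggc
Egr2: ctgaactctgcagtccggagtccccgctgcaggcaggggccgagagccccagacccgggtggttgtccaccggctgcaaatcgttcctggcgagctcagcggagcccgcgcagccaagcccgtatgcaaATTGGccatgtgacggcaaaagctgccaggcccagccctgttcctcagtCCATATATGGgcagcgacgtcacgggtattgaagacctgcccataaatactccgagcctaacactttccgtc
The Hspa1a and Hspa1b windows were 98.8% identical, with 3 differences, C44T, T47C and T249G (Hspa1a base, position from the 5′ end of the window, Hspa1b base). Both windows held the heat shock element as GAAGATTC, starting at position -104 from the start site, and a CCAAT box on the opposite strand.

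The motifs were searched on both strands in the same 250 bases of every entry. A heat shock element (GAANNTTC or TTCNNGAA) was held by Hspa1a, Hspa1b and 1 of the start sites of Egr2, and by 12.8% of all 32851 entries. The CArG box was held by Egr2 alone among the 8 and by 1.47% of all entries. An EGR site (GCGNGGGCG) was held by Fosb and Klf4 and by 4.70% of all entries, and a CCAAT box by 5 of the 8 members (Junb, Egr2, Ier3, Hspa1a and Hspa1b) and 33.8% of all entries. The cyclic AMP response element TGACGTCA (1.55% of all entries) and the AP-1 site TGANTCA (6.75%) were in 0 of the 12 windows of these 8 members. A match is a description of letters and not of binding. Sites outside the 250 bases or with other letters were not searched, so a missing match does not mean that a gene lacks the element.

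The summed immediate-early level was highest in the mesothelial-like and crypt groups, intermediate in the villus group and lowest in the Fibin type and the Sox6 Adamts18 group, while the summed heat shock level varied over a smaller range. The summed immediate-early level, in UMIs per 10000 UMIs of a cell, was 144 and 139 in mesothelial-like cells of libraries 1 and 2 and 123 in crypt cells of both. It was 70.5 and 83.8 in villus cells, 48.2 and 43.6 in Sox6 Wif1 cells, 34.4 and 55.2 in Sox6 only cells, 27.5 and 35.3 in the Fibin type and 5.0 and 28.0 in Sox6 Adamts18 cells. The highest group exceeded the lowest 28.9-fold in library 1, where the lowest group has 18 cells, and 4.94-fold in library 2. For the summed heat shock level the same ratio was 3.76-fold in library 1 and 3.36-fold in library 2.

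Fos, a subunit of AP-1, averaged 27.6 UMIs per 10000 in library 1 and 24.0 in library 2 in mesothelial-like cells and 23.3 and 20.6 in crypt cells. It averaged 14.3 and 15.5 in villus, 15.3 and 11.7 in Sox6 Wif1, 9.70 and 12.6 in Sox6 only, 5.66 and 6.88 in Fibin type and 0.911 and 5.68 in Sox6 Adamts18 cells. Mesothelial-like, crypt and villus cells followed each other without overlap of their libraries, whereas villus and Sox6 Wif1 overlapped, as did the Sox6 Wif1 and Sox6 only groups and the Fibin type and Sox6 Adamts18.

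Fosb, a second FOS family subunit, kept to that order. Its level was 15.6 and 14.1 UMIs per 10000 in mesothelial-like, 11.6 and 10.1 in crypt, 4.99 and 5.53 in villus and 5.55 and 3.76 in Sox6 Wif1 cells. In Sox6 only cells it was 3.72 and 4.76, in the Fibin type 1.8 and 2.83, and in Sox6 Adamts18 cells 0.304 and 2.88. The crypt and villus libraries stood apart, and the lower 4 groups and the villus group ran into each other except between Sox6 only and Fibin type.

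Junb, the JUN family partner in this set, was 36.3 and 34.4 UMIs per 10000 in mesothelial-like and 32.2 and 32.0 in crypt cells. It was 19.8 and 22.9 in villus, 9.76 and 14.9 in Sox6 only, 12.8 and 11.7 in Sox6 Wif1, 6.44 and 8.38 in Fibin type and 1.46 and 7.0 in Sox6 Adamts18 cells. Here the villus cells stood above all 3 Sox6 groups in both libraries.

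Egr1, a zinc finger transcription factor encoded on chromosome 18, was 50.0 and 52.5 UMIs per 10000 in mesothelial-like, 44.3 and 48.4 in crypt and 25.6 and 32.7 in villus cells. The other 4 groups lay lower, at 9.41 and 19.0 in Sox6 only, 12.1 and 13.5 in Sox6 Wif1, 11.3 and 14.2 in Fibin type and 1.97 and 9.61 in Sox6 Adamts18 cells. Neighbours overlapped only between Sox6 only and Sox6 Wif1 and between Sox6 Wif1 and Fibin type.

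Egr2, which belongs to the same family, was sparse. Its mean lay between 0.0462 and 0.623 UMIs per 10000 over all groups and libraries, and crypt, villus and mesothelial-like cells overlapped. Klf4, a Krüppel-like factor, was 10.2 and 9.33 in mesothelial-like, 7.44 and 7.22 in crypt and 3.33 and 3.96 in villus cells, and between 0.119 and 2.21 in the other 4 groups, which overlapped as neighbours. Ier3, an early response gene that acts on cell survival, was highest in crypt (3.79 and 4.13) and mesothelial-like cells (4.16 and 3.71), which overlapped, followed by villus cells at 2.07 and 2.57 and by 0.189 to 1.36 in the others.

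Hspa1a, an inducible HSP70 chaperone, was 10.1 and 14.5 UMIs per 10000 in crypt, 9.41 and 11.2 in villus and 8.87 and 11.5 in mesothelial-like cells, and these 3 groups overlapped. It was 8.35 and 7.71 in Sox6 Wif1, 6.21 and 8.20 in Sox6 only, 3.31 and 5.53 in Fibin type and 3.49 and 4.48 in Sox6 Adamts18 cells. The order thus began with the crypt group rather than with the mesothelial-like group.

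Hspa1b, the neighbouring copy, was 5.61 and 13 in crypt, 5.14 and 10.7 in mesothelial-like and 4.91 and 10.1 in villus cells. It was 3.20 and 5.19 in Sox6 Wif1, 1.77 and 6.26 in Sox6 only, 2.02 and 5.19 in Fibin type and 0.768 and 3.42 in Sox6 Adamts18 cells. All neighbouring groups overlapped, and library 2 was the higher in 7 of 7 groups.

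Hsp90aa1, the stress-inducible form of HSP90, was 13.1 and 19.0 in crypt, 12.2 and 15.6 in mesothelial-like and 12.1 and 15.3 in villus cells. A gap followed, with 6.52 and 8.06 in the Fibin type, 4.80 and 8.12 in Sox6 only, 5.22 and 6.65 in Sox6 Wif1 and 3.39 and 5.94 in Sox6 Adamts18 cells. Library 2 was again the higher in 7 of 7 groups.

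**Figure D1:**
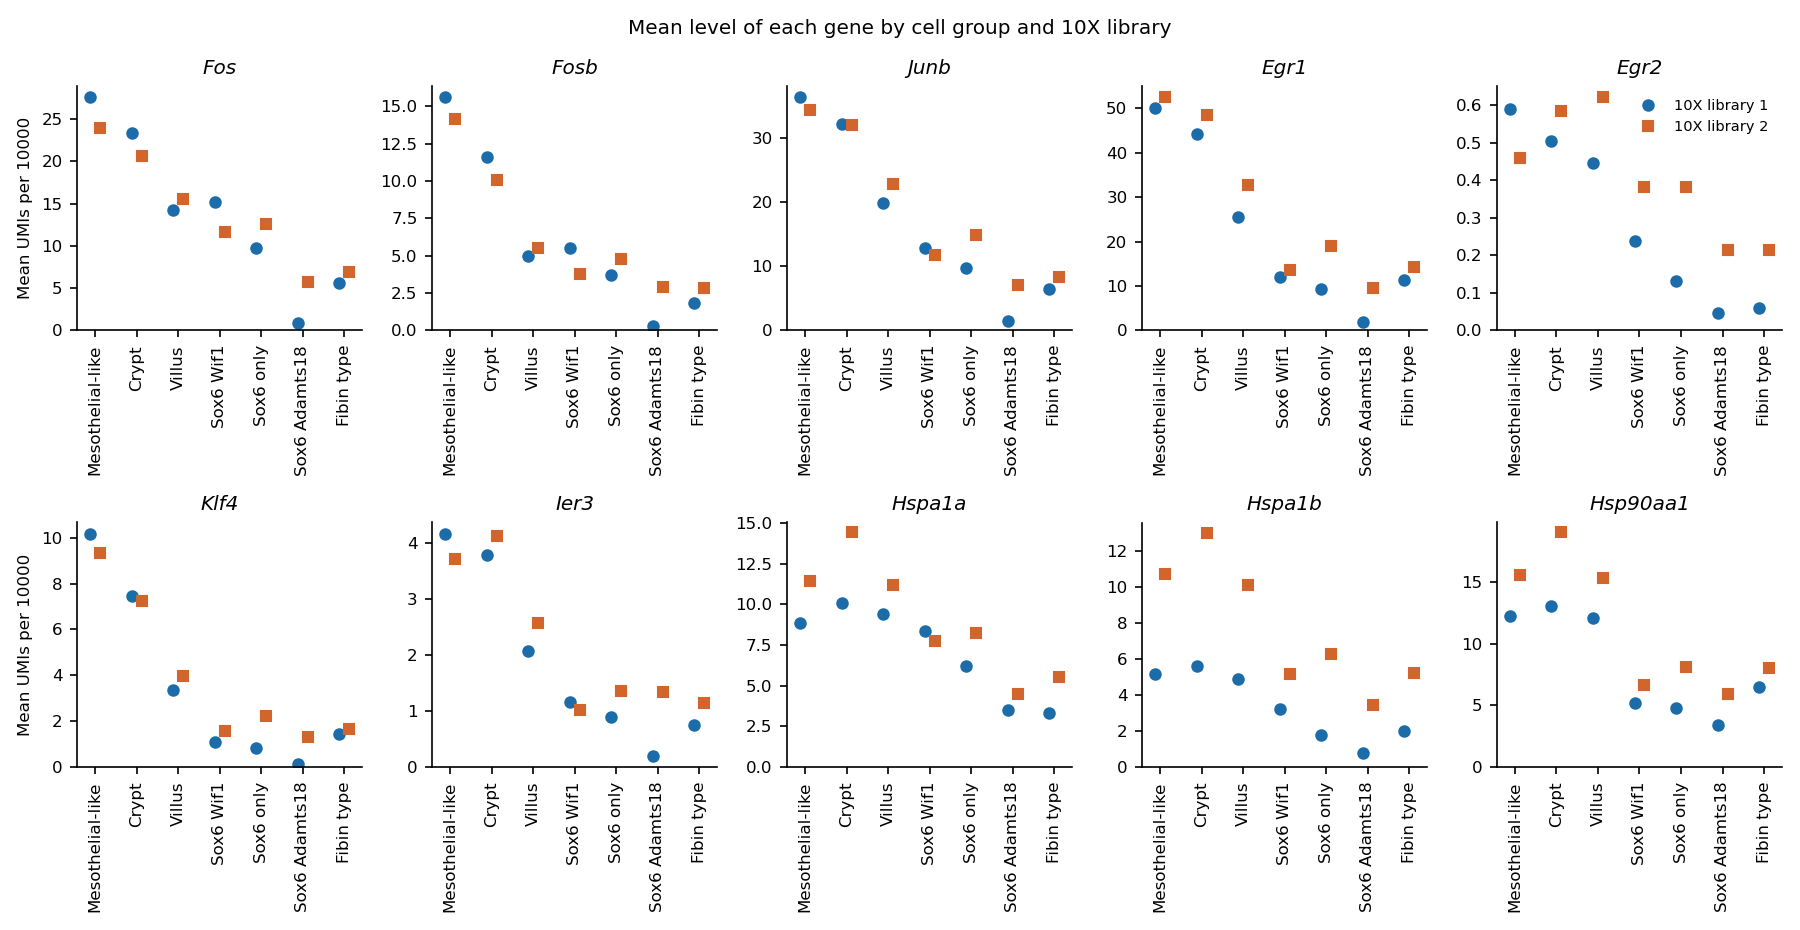
Mean level of each of the 10 genes (y axis, UMIs per 10000 UMIs of a cell, linear, from 0) in 7 cell groups (x axis) and both 10X libraries (circles library 1, squares library 2). The 7 immediate-early genes step down from mesothelial-like and crypt to villus cells, as in Egr1 (50.0 and 52.5, 44.3 and 48.4, 25.6 and 32.7), except Egr2, while the 3 heat shock genes share a high level in these 3 groups.

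The spread among cells of 1 group was wide, and the groups differed more in their medians than in their means. In crypt cells the median immediate-early sum was 126 UMIs per 10000 in library 1 (quartiles 41.4 and 183) and 121 in library 2 (quartiles 44.4 and 184). In villus cells it was 36.0 (3.81 and 119) and 50.5 (12.8 and 139), so that the upper quartile of villus cells passed the median of crypt cells only in library 2. Mesothelial-like cells were the most uniform in proportion, with medians of 149 (99.96 and 191) and 138 (74.0 and 190).

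Most low groups contained a minority of high cells. In Sox6 Wif1 cells the median was 6.48 in library 1 and 14.1 in library 2, yet the upper quartiles were 68.8 and 64.7. In Sox6 only cells the medians were 6.2 and 18.9 and the upper quartiles 44.7 and 85.6, and in the Fibin type the medians were 4.49 and 10.7 and the upper quartiles 14.1 and 39.3. The lowest group, Sox6 Adamts18, had medians of 1.98 and 8.83 and upper quartiles of 7.70 and 34.0, so that its 18 cells in library 1 showed little of this. The median heat shock sum ran from 20.9 and 35.0 in crypt cells to 8.93 and 17.1 in villus cells and to 4.0 and 7.85 in Sox6 Wif1 cells.

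**Figure D2:**
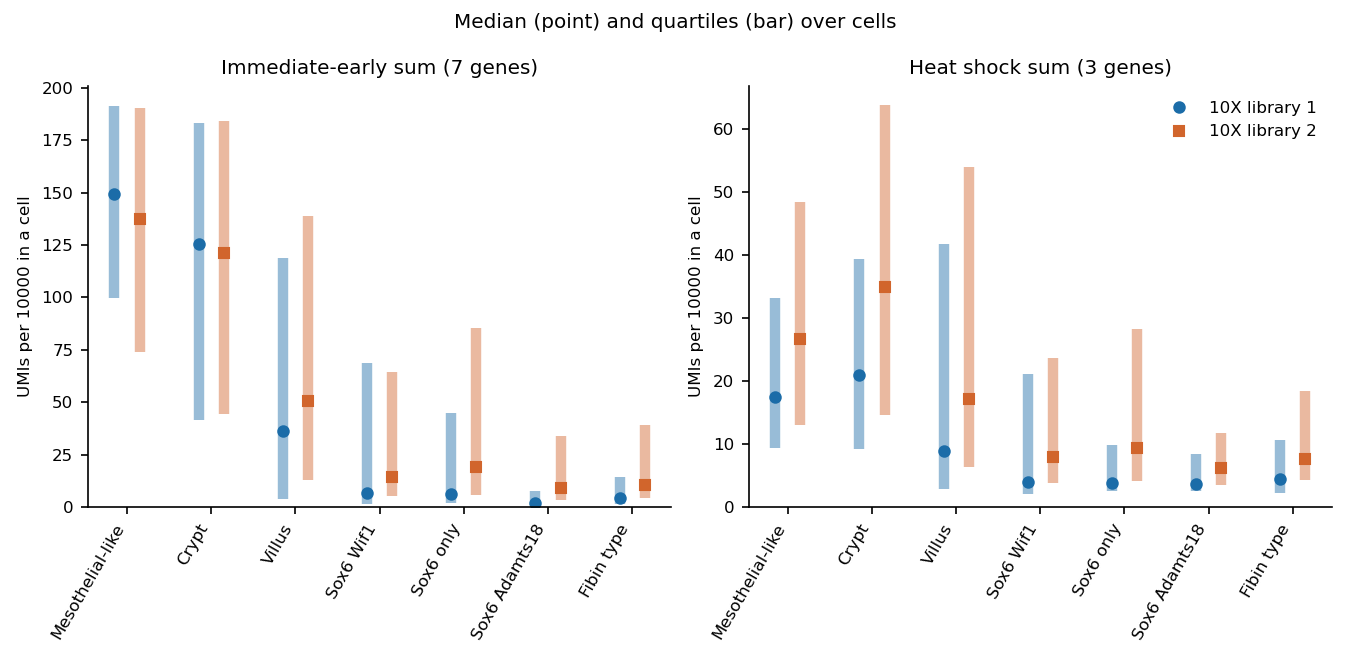
Median (points) and quartiles (bars) over cells of the summed immediate-early level and the summed heat shock level (y axes, UMIs per 10000 UMIs of a cell, linear) by cell group and 10X library. Villus and Sox6 Wif1 cells have low medians and far upper quartiles (36.0 with 119, and 6.48 with 68.8, immediate-early sum in library 1), whereas mesothelial-like cells lie high as a whole.

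The balance of both families also differed. The immediate-early sum was 5.50 and 3.67 times the heat shock sum in mesothelial-like cells, 4.28 and 2.65 times in crypt cells and 2.67 and 2.29 times in villus cells. In the Fibin type it was 2.32 and 1.88 times, in Sox6 Wif1 cells 2.87 and 2.23 times and in Sox6 only cells 2.69 and 2.44 times. In Sox6 Adamts18 cells it was 0.653 times over the 18 cells of library 1, where the heat shock sum was the higher, and 2.02 times in library 2. Both sums are in UMIs and not per length of the transcripts, so these ratios compare groups and not genes.

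All 3 heat shock genes were higher in library 2 over whole libraries. Over whole libraries the level in library 2 divided by that in library 1 was 2.08 for Hspa1b, 1.27 for Hspa1a and 1.31 for Hsp90aa1. It lay between 0.842 (Fosb) and 1.19 (Egr2) for the immediate-early genes, and over 1528 genes its median was 1.04, with 0.704 and 1.56 as the 5th and 95th percentiles. Hspa1b thus lay outside the range of the middle 90% of genes, and its ratio was between 1.62 and 4.45 within the 7 groups. Within groups the ratio of immediate-early genes also reached high values, up to 11.1 for Klf4 and 9.45 for Fosb, both in the Sox6 Adamts18 group with its 18 cells in library 1. Their medians over the groups were 1.19 and 1.11. The median was 1.60 for Egr2, 1.29 for Hspa1a and 1.27 for Hsp90aa1. The ratio of Hspa1b to Hspa1a was 0.555 in library 1 and 0.896 in library 2 in crypt cells, and higher in library 2 in every group. With 1 library on each side, no test of the libraries against each other was made.

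Villus and crypt groups were compared first, on the mean over cells of ln(1 + UMIs per 10000) in each library and group. Of the 10 members, 9 were lower in villus than in crypt cells, with a median difference of -0.54 over the members against 0.0026 over all genes tested (limma, Benjamini-Hochberg adjusted p below 0.05, n = 2 libraries). Of all 1982 genes tested, 17.9% were called, 6.1% higher and 11.8% lower in villus cells. These calls include 5 of the 13 genes of the grouping rule. Egr1 differed by -1.01 and -0.70 in libraries 1 and 2 (mean -0.85 ± 0.21, SD, limma adjusted p = 0.0187) and Fosb by -0.83 and -0.60 (mean -0.71 ± 0.16, limma adjusted p = 0.00472). Klf4 differed by -0.67 and -0.58 (limma adjusted p = 0.00128), Junb by -0.78 and -0.51 (0.0215), Fos by -0.79 and -0.52 (0.0259) and Ier3 by -0.47 and -0.42 (0.00908).

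The heat shock genes differed less than most immediate-early genes on this scale. Hspa1a differed by -0.43 and -0.48 (limma adjusted p = 0.00346), Hspa1b by -0.28 and -0.45 (0.0171) and Hsp90aa1 by -0.34 and -0.37 (0.0133). Egr2 did not pass the test, with -0.040 and -0.0084 (limma adjusted p = 0.908). These calls depended on the library block, the filter and the scale. Without the library block 6 of the 9 calls were lost, those of Fos (limma adjusted p = 0.110), Junb (0.129), Egr1 (0.131), Hspa1a (0.202), Hspa1b (0.699) and Hsp90aa1 (0.285). With no filter on low values Fos (limma adjusted p = 0.0876), Junb (0.0711) and Egr1 (0.0716) were not called, and with thinning to 2000 UMIs Hspa1b (0.114) was not. With log2 of the summed UMIs per 10000, which gives cells with many UMIs of a gene more weight, all 10 differences kept their direction but 0 of 10 members were called by limma, against 265 genes called and 513 at an unadjusted p under 0.05 over the table. On that scale the differences ran from -1.0 (Fosb) to -0.033 (Egr2), with Egr1 at -0.64 (limma adjusted p = 0.459), and 3 members (Fosb, Klf4 and Ier3) were called when the Sox6 Adamts18 group with its 18 cells was left out of the fit. Lpl itself, which defines the villus group, was anticorrelated with the immediate-early sum across cells within groups (mean Pearson r -0.253), so the grouping is not fully independent of the members.

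Against the subepithelial cells, taken as the mean of the 3 Sox6 groups, the villus cells were higher in all 10 members, with a median difference of 0.50 against -0.016 over all genes tested. Of the 1982 genes, 49.8% were called, 18% higher and 31.8% lower in villus cells. Egr1 differed by 1.14 and 0.86 (mean 1.00 ± 0.20, SD, n = 2 libraries, limma adjusted p = 0.000769) and Junb by 0.89 and 0.71 (0.80 ± 0.13, limma adjusted p = 0.000658). Fos differed by 0.74 and 0.57 (limma adjusted p = 0.00319), Klf4 by 0.66 and 0.54 (6.29e-05) and Fosb by 0.43 and 0.32 (0.0151).

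The heat shock genes showed close values in both libraries. Hspa1a was higher by 0.41 and 0.43 (limma adjusted p = 0.000338), Hspa1b by 0.48 and 0.48 (0.000315) and Hsp90aa1 by 0.49 and 0.53 (0.000106). Egr2 and Ier3 passed with smaller differences, 0.12 ± 0.022 and 0.26 ± 0.036. On the log2 scale of summed UMIs, 8 of 10 members remained past the threshold of limma, all but Fos (1.12, adjusted p = 0.0732) and Fosb (1.03, adjusted p = 0.183). Fosb was also lost without the Sox6 Adamts18 group (0.24, limma adjusted p = 0.0547). With no filter on low values Ier3 was not called (limma adjusted p = 0.0555). Without the library block Hspa1a (limma adjusted p = 0.0588) and Hspa1b (0.156) were not called, and with thinning before grouping Hspa1a (0.127), Fosb (0.0627) and Egr2 (0.0830) were not called.

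Within the subepithelial cells, the side with Wif1 was compared with the side with Adamts18. Of the 10 members, 6 were higher on the Wif1 side, with a median difference over the members of 0.39 against 0.0013 over all genes tested. Of the 1982 genes, 29.5% were called, 15.4% higher and 14.1% lower on the Wif1 side. Junb differed by 0.91 and 0.56 (mean 0.74 ± 0.24, SD, n = 2 libraries, limma adjusted p = 0.00691), Fos by 0.86 and 0.40 (0.63 ± 0.32, adjusted p = 0.0197) and Egr1 by 1.01 and 0.26 (0.64 ± 0.53, adjusted p = 0.0459). Hspa1a differed by 0.51 and 0.29 (limma adjusted p = 0.00315), Hspa1b by 0.49 and 0.28 (0.00838) and Fosb by 0.62 and 0.19 (0.0440).

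Klf4, Egr2, Ier3 and Hsp90aa1 did not pass, with mean differences of 0.22, 0.076, 0.054 and 0.10, and Ier3 pointed in opposite directions in libraries 1 (0.26) and 2 (-0.15). Library 1 holds 18 Adamts18 cells. The limma p-values do not reflect that, because group means had equal weight and the spread was pooled over the 7 groups. The standard error of Egr1 was 0.212 here and in villus against crypt cells alike, whatever the SD printed beside the p. These p-values may therefore be too small. Without library 1 the differences of Fos, Fosb, Egr1 and Klf4 were 0.40, 0.19, 0.26 and 0.14, and without library 2 those of Fosb and Egr1 were 0.62 and 1.01, all over 1.5 times away from the means. When each cell of at least 2000 UMIs was thinned to 2000, 3 of 10 members passed. Without the library block 0 of 10 passed in limma, against 503 genes called and 722 at an unadjusted p under 0.05 over the table. With no filter on low values Fos (limma adjusted p = 0.0658), Fosb (0.118) and Egr1 (0.127) were not called. On the log2 scale of summed UMIs 5 of 10 members were called.

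The mesothelial-like group exceeded the Fibin type in all 10 members, with a median difference of 1.25 against -0.00034 over all genes tested. Of the 1982 genes, 52.2% were called, 27.2% higher and 25% lower in mesothelial-like cells. Junb differed by 2.33 and 1.8 (mean 2.07 ± 0.38, SD, n = 2 libraries, limma adjusted p = 2.43e-06), Egr1 by 2.2 and 1.83 (2.01 ± 0.26, adjusted p = 1.83e-05) and Klf4 by 1.68 and 1.43 (1.56 ± 0.18, adjusted p = 2.15e-07). Fos differed by 2.2 and 1.52, Fosb by 1.99 and 1.56 and Ier3 by 0.95 and 0.73.

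The heat shock genes again differed less than most immediate-early genes, Hspa1a by 1.01 and 0.87 (limma adjusted p = 3.35e-06), Hspa1b by 0.66 and 0.84 (4.29e-05) and Hsp90aa1 by 0.72 and 0.69 (3.32e-05). Egr2 differed by 0.27 and 0.13 (limma adjusted p = 0.00127), and its value without library 1, 0.13, is over 1.5 times below the mean of 0.20. All 10 members also passed on the log2 scale of summed UMIs, with differences from 0.86 (Hsp90aa1) to 2.48 (Klf4). Without the library block Hspa1b was not called (limma adjusted p = 0.0739). The difference of differences between the families was not tested.

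**Figure D3:**
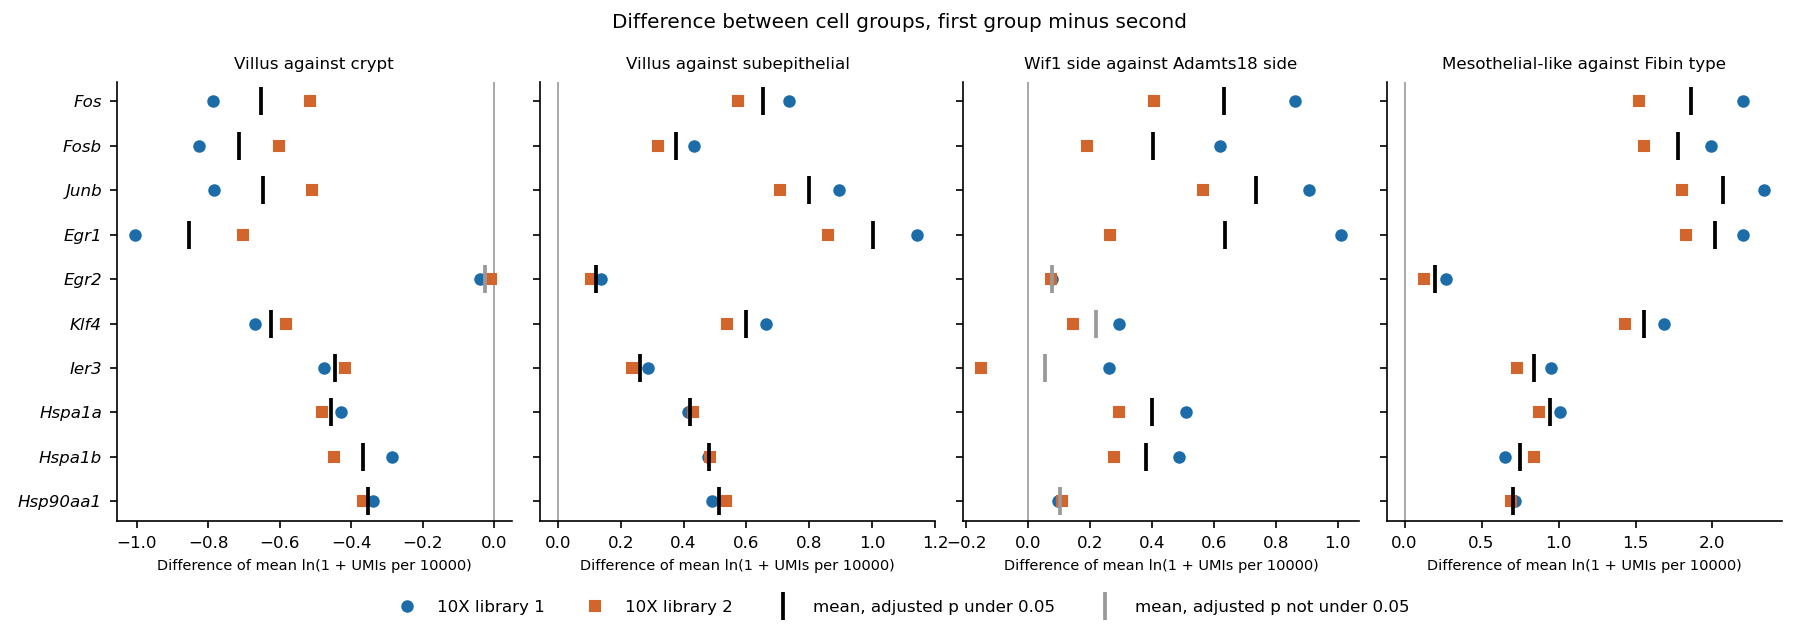
Difference between cell groups in mean ln(1 + UMIs per 10000) (x axes, first group minus second) for the 10 genes (y axis) in 4 comparisons, with 10X library 1 as circles, library 2 as squares and the mean as a bar, black where the limma adjusted p was under 0.05. In villus against crypt all points lie below 0, in villus against subepithelial and mesothelial-like against Fibin type all lie above 0, and on the Wif1 side Ier3 has its libraries at 0.26 and -0.15.

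Further genes of the same kinds were counted from wider lists. Of 52 other immediate-early genes, 41 were in the table and 39 were tested. In villus against crypt cells 21 of the 39 were lower and 1 was higher, and in villus against subepithelial cells 16 were higher and 5 lower. On the Wif1 side 11 were higher and 1 lower, and in mesothelial-like against Fibin type cells 33 were higher and 1 lower. In the same order, 56.4%, 53.8%, 30.8% and 87.2% of the list were called, against 17.9%, 49.8%, 29.5% and 52.2% of all genes tested, so the shares in villus against subepithelial cells and on the Wif1 side were near those of all genes. The exceptions, named after their values were seen, were Plk2, higher in villus than in crypt cells (0.091 ± 0.0026), Ptgs2, the cyclooxygenase 2 gene, lower on the Wif1 side (-0.30 ± 0.19), and Dusp6, lower in mesothelial-like cells (-0.31 ± 0.030). The 5 genes lower in villus than in subepithelial cells were Gadd45a, Bhlhe40, Plk2, Trib1 and Dusp6, with differences from -0.55 to -0.19. The list's median differences were -0.19, 0.11, 0.15 and 0.43, in that order.

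By size of the difference, Zfp36, which encodes an mRNA decay factor, led in villus against crypt cells (-0.76 ± 0.13, limma adjusted p = 0.00346), followed by Dusp1, a phosphatase of MAP kinases (-0.69 ± 0.19), and Nfkbiz (-0.61 ± 0.15). Zfp36 (0.56 ± 0.11) and Klf2 (0.55 ± 0.088) were higher in villus than in subepithelial cells, and Gadd45a, a growth arrest gene, was lower (-0.55 ± 0.17). On the Wif1 side Dusp1 (0.61 ± 0.15), Gadd45a (0.54 ± 0.15) and Gadd45b (0.51 ± 0.012) were the furthest apart. Zfp36 (1.77 ± 0.28), the nuclear receptor Nr4a1 (1.37 ± 0.22) and Jun (1.30 ± 0.18) were the furthest apart in mesothelial-like against Fibin type cells.

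Of 38 other heat shock and chaperone genes, 15 were in the table and 14 were tested, so the list is thin. In villus against crypt cells 4 were lower and 0 higher, namely Dnajb1, the HSP40 partner of HSP70 (-0.42 ± 0.0044, limma adjusted p = 0.000273), Bag3, a nucleotide exchange cochaperone (-0.23 ± 0.0057), and Hspb8, a small heat shock protein (-0.23 ± 0.043), and, named after its value was seen, Hmox1 (-0.075 ± 0.019). In villus against subepithelial cells 3 were higher and 4 lower, with Cryab at -0.43 ± 0.22, Hspa4l at -0.36 ± 0.069 and Hspb8 at 0.25 ± 0.026. The others, named after their values were seen, were Hspb1 (-0.18 ± 0.024), Stip1 (-0.087 ± 0.0097), Dnajb1 (0.21 ± 0.018) and Fkbp5 (0.14 ± 0.050). On the Wif1 side Hspa4l was higher (0.28 ± 0.0068) and Hspb1 lower (-0.32 ± 0.12). In mesothelial-like against Fibin type cells 7 were higher and 1 lower, led by Dnajb1 (0.60 ± 0.0073), Hspb8 (0.53 ± 0.081) and Bag3 (0.38 ± 0.067), and Stip1 was the lower gene (-0.092 ± 0.021). Called were 28.6%, 50%, 14.3% and 57.1% of the list in the order of the comparisons, so in villus against subepithelial and mesothelial-like against Fibin type cells its share was near that of all genes, and on the Wif1 side below it. The list's median differences were -0.060, -0.0085, 0.023 and 0.083, in the order of the comparisons.

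Across single cells, immediate-early and heat shock genes were positively correlated within each group. The Pearson r of the natural log of both sums was 0.784 in villus cells of library 1 (611 cells) and 0.784 in library 2 (3699 cells), and 0.686 and 0.743 in crypt cells. It was 0.825 and 0.795 in Sox6 Wif1 cells, 0.713 and 0.752 in Sox6 only cells, 0.665 and 0.683 in the Fibin type and 0.475 and 0.567 in mesothelial-like cells. In the Sox6 Adamts18 group it was 0.385 over the 18 cells of library 1 and 0.656 in library 2.

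Spearman's rho was 0.795 and 0.821 in villus cells, 0.493 and 0.650 in crypt cells and 0.298 and 0.493 in mesothelial-like cells, so that mesothelial-like cells were low and villus cells high on both measures. When the cells of a group and library were split at the medians of both sums, 87.9% and 87.5% of villus cells in the upper part for immediate-early genes were also in the upper part for heat shock genes, against 12.1% and 12.5% of the rest. In mesothelial-like cells the same shares were 59.4% and 67.1% against 40.4% and 32.9%. These values describe cells that share a library, a scaling by total UMIs and a sort, and carry no p.

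Depth moved little with either sum. The Pearson r between the immediate-early sum and the total UMIs of a cell lay between -0.171 and 0.217 in the 14 combinations of group and library, and that of the heat shock sum between -0.372, in the 18 cells of Sox6 Adamts18 in library 1, and 0.297. With values centred within each group, the r of both sums was 0.712 in library 1 and 0.747 in library 2. When cells were thinned to 2000 UMIs, which left out 206 grouped cells with fewer, it was 0.626 and 0.648.

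**Figure D4:**
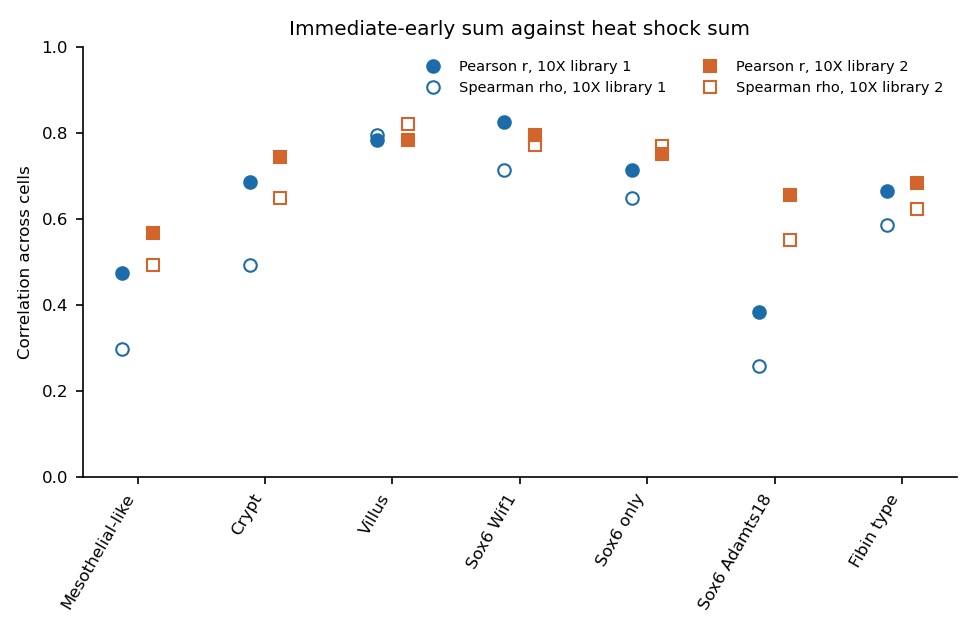
Correlation across cells between the immediate-early sum and the heat shock sum, both as ln(1 + UMIs per 10000), in each cell group (x axis) and 10X library (circles library 1, squares library 2), with Pearson r filled and Spearman rho open (y axis, no unit). Villus cells lie near 0.8 on both measures, and mesothelial-like cells lie lower, with a Pearson r of 0.475 and 0.567.

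Pairs were compared within and across the families. Over the 21 pairs of an immediate-early and a heat shock gene, the median r was 0.483 in library 1 and 0.512 in library 2, against 0.518 and 0.454 over the 21 immediate-early pairs and 0.565 and 0.561 over the 3 heat shock pairs. Among Fos, Fosb, Junb and Egr1, picked after the values were seen, the 6 pairs lay between 0.704 and 0.836 in library 1 and between 0.644 and 0.789 in library 2, above the 12 pairs of these genes with heat shock genes (0.439 to 0.605 and 0.503 to 0.620). Junb and Egr1 formed the closest pair (0.836 and 0.789), followed by Fos and Egr1 (0.795 and 0.752), and Hspa1a and Hspa1b reached 0.691 and 0.690.

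Members differed in how they tracked the heat shock genes. The median r with the 3 heat shock genes was 0.595 and 0.610 for Egr1, 0.551 and 0.580 for Junb, 0.541 and 0.564 for Fos and 0.483 and 0.512 for Fosb. It was 0.355 and 0.377 for Ier3, 0.290 and 0.327 for Klf4 and 0.218 and 0.254 for Egr2. Egr2 is sparse, and Ier3 was seen in only 34.2% and 40.2% of villus cells (Fosb 51.6% and 60.5%). A weak correlation of sparse counts is no finding. A UMI of Klf4 was seen in 80.6% and 84.1% of crypt cells against 75.3% and 77.8% for Fosb, but in the 3 Sox6 groups and the Fibin type in fewer cells than Fosb, down to 21.0% and 38.5% of the Fibin type (Fosb 22.0% and 42.6%) and 11.1% and 31.0% of Sox6 Adamts18 cells (Fosb 22.2% and 49.4%).

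**Figure D5:**
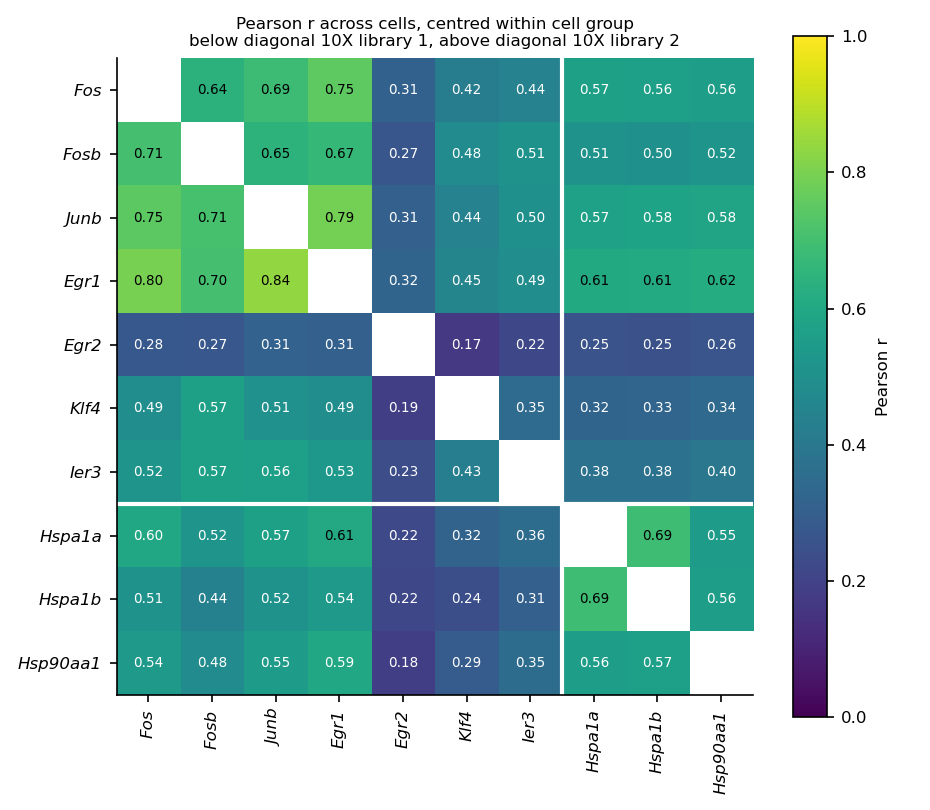
Pearson r across cells for every pair of the 10 genes, on ln(1 + UMIs per 10000) centred within cell groups, with 10X library 1 below the diagonal (2348 cells) and library 2 above it (13035 cells). White lines part the 7 immediate-early from the 3 heat shock genes, and the block of Fos, Fosb, Junb and Egr1 is brighter (0.704 to 0.836 in library 1) than their block with the heat shock genes (0.439 to 0.605), with Egr2 the dimmest row.

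The other genes of the table whose values followed each sum most closely were taken by the mean r over the libraries. For the immediate-early sum these were Btg2, an antiproliferative early gene (0.752), Zfp36 (0.737), Nr4a1 (0.672), Ier2 (0.651) and Jun (0.636), against a median of -0.0038 and a 95th percentile of 0.148 over 3453 other genes. For the heat shock sum they were Btg2 (0.635), Zfp36 (0.561), Nr4a1 (0.534), Jun (0.514) and Gadd45b (0.514), so that all 5 stood on the immediate-early list and none on the heat shock list. The median r with the heat shock sum was 0.189 over the 41 other immediate-early genes and 0.0789 over the 15 other heat shock and chaperone genes. The 95th percentiles were 0.534 and 0.399. The table held 41 of the 52 listed immediate-early genes but only 15 of the 38 listed heat shock and chaperone genes. Most of the heat shock list could thus not appear among the closest genes, and the lists cannot be compared evenly.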

How the data were processed

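The authors sequenced the 10X and Smartseq2 libraries and, per the labels, processed them with Cell Ranger 3.1.0 (10X) and with Trim Galore 0.4.4, TopHat2 2.1.1 and Subread 1.4.6-p5 (Smartseq2) on mm10. The deposited table holds natural log values per cell, filtered, scaled and integrated by the authors with Seurat. Its 3891 complete gene rows (1 row that ended early was left out) and 17630 cells were used. In 10X cells 100% of values were whole multiples of the value of 1 UMI (tolerance 0.01, scale 10000), so UMIs and totals were recovered. The table's genes carry 23.6% and 22.6% of the UMIs. The paper merged both datasets on their most variable genes, and the table may hold such a selection. Genes that differ between cells may then be over-represented in every share and median over all genes. Smartseq2 values are corrected by the integration (25.1% and 26.1% below 0) and were only described.

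Members and lists were chosen with earlier results of these data known. All 10 members are named, with the 5 other genes closest to each sum and, per wider list and comparison, the 3 called genes of largest difference. Means of natural log values per library and group (7 groups with at least 10 cells in each library) were compared with limma 3.58.1 in R 4.3.3, with mean trend and library as block, because groups of a library come from the same cell suspension, over genes above 0 in at least 5% of the cells of a group, with Benjamini-Hochberg adjustment at 0.05. The method was tested on simulated data. All groups entered the same fit with equal weight, whatever their number of cells. The p-values thus rest on a spread pooled over groups and not on the SD of the library differences. The design also provided for raw counts, which the table does not hold. Alternatives were no filter, no block, no trend, log2 of summed UMIs per 10000 + 0.1, thinning to 2000 UMIs (seed 11), leaving out the 5% of cells with the highest totals or cells with a UMI of Ptprc, Epcam, Pecam1, Cnn1, Kit or a further marker of other cells that is not reported here, and each library in turn. Thinning before grouping, and fits without the Sox6 Adamts18 group, were added after seeing the data. No doublet caller was run. UMIs were handled in Python 3.11.15 with numpy 2.4.6, tables with pandas 2.3.3, ranks with scipy 1.17.1 and figures with matplotlib 3.10.9.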

Additional observations from a re-analysis of the deposited data

How the results depend on the processing

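Of 370 refits of a member's difference under another setting, 317 gave the same direction and call, 52 the same direction without the call and 1 a call gained (Klf4, Wif1 against Adamts18 side, 0.25 without the 5% of cells of highest total). No refit with a test changed direction. In villus against crypt cells 25 refits lost a call, most of them on log2 of summed UMIs (0 of 10 members called), without the library block (3 of 10) and without a filter on low values (6 of 10). On the Wif1 side 3 of 10 members were called without that filter and 4 of 10 without the mean trend, and the cause was not tested. With thinning to 2000 UMIs, 1319 genes were tested, and 214 (villus against crypt), 623 (villus against subepithelial), 382 (Wif1 against Adamts18 side) and 687 genes (mesothelial-like against Fibin type) were called. Fewer genes were tested, and members that were tested also lost their calls (Hspa1b in villus against crypt cells, and Fosb, Egr1 and Hspa1b on the Wif1 side, with limma adjusted p = 0.0593, 0.0701 and 0.0814). With thinning before grouping, 559 of 1309 genes and 7 of the 10 members were called in villus against subepithelial cells, and Wif1 against Adamts18 could not be fitted, as too few cells remained.

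The samples of both 10X libraries were paired by library in the main model. With no replicate block, limma called 273, 896, 503 and 971 genes in the 4 comparisons in the order above, and 3, 8, 0 and 9 of the 10 members. The mean r of the immediate-early and heat shock sums was 0.729 and became 0.637 after thinning and 0.623 after thinning before grouping, and it was 0.712 and 0.747 when either library was left out. Leaving out a library leaves no residual degrees of freedom, so these are values with no test. The 2 libraries and the 18 Adamts18 cells of library 1 limit the precision, and intervals within libraries were not used because cells are not replicates.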

Other observations

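The genes of the table that ran against these families across cells were read off after the values were seen. The lowest mean r with the immediate-early sum was that of Adamdec1 (-0.290), a metalloprotease of the villus list, followed by Fhl2 (-0.270), Pdlim3 (-0.255), Lpl (-0.253) and Pdlim1 (-0.249). Fhl2, Pdlim3 and Pdlim1 encode LIM domain proteins of the actin cytoskeleton. The lowest with the heat shock sum were Lpl (-0.227), Fhl2 (-0.187), Clec2d (-0.180), Pdlim3 (-0.178) and Agt (-0.168). Values and sums were centred within each group and library, so these are relations among cells of the same group.

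In the Smartseq2 plates, whose corrected values are not independent of the 10X cells, the mean corrected natural log value of Egr1 was 2.09 on plate 1 (360 cells) and 2.85 on plate 2 (379 cells), of Fos 1.64 and 2.25 and of Junb 2.0 and 2.67. Hspa1a was 1.22 and 1.82, Hspa1b 1.20 and 1.56 and Hsp90aa1 1.88 and 2.21. All 10 members were higher on plate 2, and the r of both sums of corrected values was 0.782 on plate 1 and 0.869 on plate 2.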
